A study of Mus musculus with 4 samples.

Results

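The 10 genes described are Trp53, the mouse gene for the tumour suppressor p53, and 9 genes that p53 is known to activate (Cdkn1a, Mdm2, Ccng1, Bbc3, Bax, Sesn2, Phlda3, Zmat3 and Trp53inp1). They were chosen by name, with earlier results of these data known. Every probe whose RefSeq accession belonged to 1 of them was taken, which gave 14 probes of the 56605 on the array, and 10 of 23462 named genes. Cdkn1a, Mdm2, Bax and Trp53inp1 had 2 probes each. All cultures were of the mouse melanoma line B16-F10, grown in medium with 10% serum. In the Cdh1 group they were cultured for 24 h with recombinant Cdh1 at 100 ng/mL, and in the control group for 24 h without it. Each group had 2 arrays, 1 from each of 2 independent sets of cultures. Cdh1 is the mouse symbol for E-cadherin, and the labels give the recombinant protein no other name.

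p53 is a transcription factor that is held at a low level by the ubiquitin ligase Mdm2 and is stabilised after DNA damage and other stress. It binds response elements made of a pair of half-sites and activates genes that stop the cell cycle, repair DNA or start apoptosis. Because p53 is controlled mostly at the level of the protein, the transcripts of its targets are commonly read as a sign of its activity. Mdm2 is itself a target, which closes a feedback loop.

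The RefSeq promoter table (GRCm38.p6) held 8 of the 10 genes, all but Zmat3 and Trp53inp1. The 250 bases before each start site were searched for the 10-base p53 half-site consensus, which is its own reverse complement, so that a match lies on both strands. A match was present for 5 of the 8 genes (Trp53, Cdkn1a, Mdm2, Ccng1 and Bax), and 8.2% of the 27025 genes in the table had one. Allowing 1 mismatch to a 20-base element of 2 adjoining half-sites, a match was found for Cdkn1a and Ccng1, and for 0.0925% of all genes. The windows of 3 genes whose signal fell between the sets, as described further on, and of Bax, whose signal did not pass the test, are shown 5′ to 3′ on the gene's strand with the exact half-site matches in capitals. They lie at chr17:29090729-29090978 on the plus strand for Cdkn1a, and on the minus strand at chr11:40755287-40755536 for Ccng1, chr10:117710759-117711008 for Mdm2 and chr7:45466899-45467148 for Bax.
Cdkn1a: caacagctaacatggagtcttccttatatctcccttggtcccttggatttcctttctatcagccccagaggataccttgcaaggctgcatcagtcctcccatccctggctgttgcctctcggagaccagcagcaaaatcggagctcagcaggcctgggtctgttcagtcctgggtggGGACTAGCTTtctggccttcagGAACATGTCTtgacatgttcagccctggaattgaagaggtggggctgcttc
Ccng1: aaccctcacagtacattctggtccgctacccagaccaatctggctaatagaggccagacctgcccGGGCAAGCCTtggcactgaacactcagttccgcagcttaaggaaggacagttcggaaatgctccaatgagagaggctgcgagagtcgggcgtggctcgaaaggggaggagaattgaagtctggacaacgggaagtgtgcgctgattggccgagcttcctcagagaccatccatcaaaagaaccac
Mdm2: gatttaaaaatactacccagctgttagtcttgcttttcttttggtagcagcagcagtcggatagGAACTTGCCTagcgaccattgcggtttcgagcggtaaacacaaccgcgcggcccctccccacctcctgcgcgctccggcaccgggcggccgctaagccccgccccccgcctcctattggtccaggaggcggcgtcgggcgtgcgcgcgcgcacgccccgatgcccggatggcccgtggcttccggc
Bax: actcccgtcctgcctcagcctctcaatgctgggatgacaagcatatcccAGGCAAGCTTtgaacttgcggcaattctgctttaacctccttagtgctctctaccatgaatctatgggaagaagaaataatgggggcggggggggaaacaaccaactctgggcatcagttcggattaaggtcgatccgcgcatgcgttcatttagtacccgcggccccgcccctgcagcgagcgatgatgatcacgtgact
In Cdkn1a the half-sites began 73 and 51 bases before the start site, in Ccng1 185, in Mdm2 186, in Bax 201 and in Trp53 75. The windows of Bbc3, Sesn2 and Phlda3 held no such match and are not shown, although the signal of Sesn2 also fell between the sets. Every window shown holds a match. The 20-base matches, each with 1 mismatch and therefore only partly in capitals above, were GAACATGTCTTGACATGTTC in Cdkn1a, beginning 51 bases before the start site, and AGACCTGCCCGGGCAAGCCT in Ccng1, beginning 195 bases before it. The table holds another Cdkn1a start site, whose window at chr17:29093519-29093768 had 0 half-sites and no 20-base match. A match describes these letters only.

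Total RNA was measured on 4 one-colour Agilent arrays, on 1 slide read in 1 scan. Of the 59305 spots that are not controls, each array had 59.29% to 61.33% well above background. A level is the log2 processed intensity relative to the 75th percentile of its array, which is set to 0, and each level is compared only with levels of the same probe. All 8 melanocyte markers examined (Tyr, Dct, Tyrp1, Pmel, Mlana, Mitf, Sox10 and Slc45a2) were well above background on all 4 arrays. So were 3 of 6 leukocyte markers (Itgam, Cd3e and Cd68), 3 of 5 fibroblast markers (Col1a1, Col1a2 and Pdgfra), 3 of 5 epithelial markers (Cdh1, Krt5 and Krt14) and 1 of 4 endothelial markers (Pecam1). The leukocyte genes Ptprc and Adgre1, the fibroblast genes Dcn and Lum, the epithelial gene Epcam and the endothelial genes Cdh5, Kdr and Tek were not well above background on any array. All 14 probes of the 10 genes were well above background on all 4 arrays, and none was saturated or marked as an outlier.

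The first comparison, Cdh1 against control, asked whether the recombinant protein changed these transcripts. None of the 14 probes passed the test (limma, Benjamini-Hochberg adjusted over 32568 probes, each adjusted p 1), and 0 of the 14 had an unadjusted p under 0.05. Over all probes 0.0% passed, and 1.72% had an unadjusted p under 0.05. This fit leaves out the set, so a difference between the sets counts as spread. Probes that differed between the sets could therefore hardly reach a low p. The mean differences of the 14 probes lay between -0.03 and 0.13 on the log2 scale, with a median of 0.02 against -0.0041 over all probes. On 0 of the 14 did the Cdh1 and control arrays separate. That count was fixed in advance, because each of the 14 separated the sets, as described further on, and each set holds 1 array of each group. It therefore says nothing about Cdh1. Over all probes, 9.76% had both Cdh1 arrays above both control arrays and 8.38% had them below (6.1% and 8.36% of all genes).

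Trp53 gave 0.54 on the control and 0.56 on the Cdh1 array of set 1, and 0.49 and 0.50 on those of set 2. The 4 levels are close to each other, and the groups overlap. The control mean was 0.52 ± 0.03 and the Cdh1 mean 0.53 ± 0.05 (SD, n = 2 each), a difference of 0.02 with a 95% interval of -0.27 to 0.31 (limma adjusted p 1). Mdm2 differed by 0.01 in set 1 and by -0.04 in set 2 at its brighter probe. Its dimmer probe gave 0.09 and 0.11.

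Cdkn1a, the cyclin-dependent kinase inhibitor p21, differed by -0.05 in set 1 and by 0.13 in set 2, and its other probe by -0.07 and 0.18. The direction was thus opposite in the 2 sets at both probes. Ccng1, which encodes cyclin G1, a regulator of Mdm2, also changed sign, at -0.08 and 0.06. Of the pro-apoptotic genes, Bbc3 differed by -0.02 and 0.04 and Bax by 0.02 and 0.01 at the brighter probe and by -0.02 and -0.05 at the other. Trp53inp1, a stress-induced p53 cofactor, was higher in both sets, at 0.02 and 0.09 for its brighter and 0.05 and 0.21 for its dimmer probe. Sesn2 differed by 0.01 and -0.02, Phlda3 by -0.07 and 0.10 and Zmat3 by -0.03 and 0.18. In all, 5 of the 14 probes were higher with Cdh1 in both sets, against 25.7% of all probes, and 1 was lower in both, against 27.2%. Counted as genes, 3 of 10 were higher in both, against 19.7%, and 0 were lower in both, against 31.6%.

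The intervals of these differences were wide, and each group holds 1 array of each set. For Ccng1 the 95% interval was -1.09 to 1.06, which narrowed to -0.24 to 0.22 once the set entered the fit as a replicate block. Over the 14 probes the blocked intervals reached from -0.24 to 0.36, and the lowest blocked adjusted p was 0.846 (limma). The missed threshold does not show that the transcripts were equal. Median centring turned the sign of the mean difference for 5 of the 10 genes, so no direction with Cdh1 is given for the genes as a group.

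**Figure D1:**
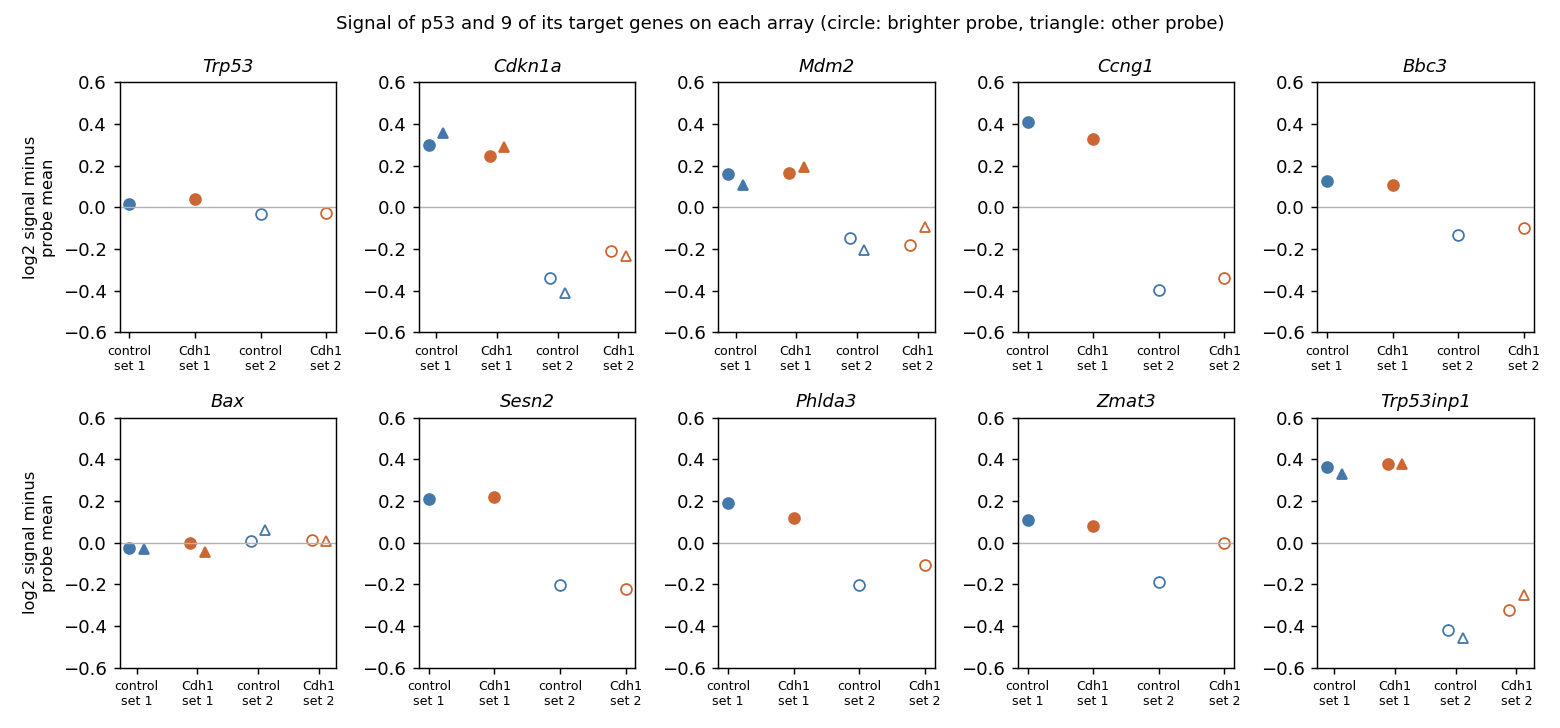
Level of each probe of the 10 genes on each array, as log2 signal minus the mean of that probe over the 4 arrays (y axis, the same range in every panel). Blue points are control and orange points Cdh1 arrays, filled points are set 1 and open points set 2, circles are the brighter probe of a gene and triangles the other. The filled points of Ccng1, Trp53inp1 and Cdkn1a sit above the open ones, while those of Trp53 and Bax lie close to 0.

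The second comparison set the arrays of set 2 against those of set 1, with 1 control and 1 Cdh1 array in each set. It shows how these transcripts varied between independent sets of cultures. In 7 of the 14 probes the signal fell from set 1 to set 2 (limma, Benjamini-Hochberg adjusted p under 0.05 over 32955 probes), and it rose in 0. Over all probes 15.5% were called, 8.64% lower and 6.82% higher. Counted as genes, each by its brighter probe, 5 of 10 fell (Cdkn1a, Mdm2, Ccng1, Sesn2 and Trp53inp1), against 11.5% of 14640 genes. The median difference of the 10 genes was -0.32, against -0.03 over all genes. In these bulk samples, fewer cells with a transcript and less of it per cell cannot be told apart.

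The largest falls were those of Trp53inp1 and Ccng1. Trp53inp1 gave 3.43 (control) and 3.45 (Cdh1) in set 1, against 2.66 and 2.75 in set 2. Both arrays of set 1 were high and both of set 2 low, with no overlap. It fell by 0.74 (SE 0.06, limma adjusted p 0.0132), which is 1.67-fold more signal in set 1. Its dimmer probe gave -0.66, -0.61, -1.44 and -1.24 in the same order, a difference of -0.71 with an SE of 0.09 (limma adjusted p 0.0253). Ccng1 gave 3.82, 3.74, 3.02 and 3.08. It too separated the sets, by -0.74 with an SE of 0.06 and an adjusted p of 0.0136 (limma), 1.67-fold more in set 1.

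Cdkn1a gave 3.95 and 3.90 on the control and Cdh1 arrays of set 1 and 3.31 and 3.44 on those of set 2. The sets did not overlap, and the signal fell by 0.55 (SE 0.07, limma adjusted p 0.0255), 1.46-fold more in set 1. Its second probe, of the accession NM_001111099, gave -0.20 and -0.27 in set 1 and -0.97 and -0.79 in set 2, a difference of -0.65 (limma adjusted p 0.0261). Both Cdkn1a probes and that of Zmat3 lay in rows 361 to 384 at one edge of the array. There the SD of the set difference was 0.446 in control and 0.478 in Cdh1 arrays, against 0.404 and 0.380 in the other rows. The SD of the difference between Cdh1 and control was 0.386 in set 1 and 0.336 in set 2, against 0.194 and 0.193. The part of this in the Cdkn1a and Zmat3 values was not tested.

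Sesn2, a stress-induced inhibitor of mTORC1 signalling, gave 2.94 and 2.95 in set 1 and 2.52 and 2.51 in set 2. It fell by 0.43 (SE 0.05, limma adjusted p 0.0229). Mdm2 gave 5.03 and 5.04 in set 1 and 4.73 and 4.69 in set 2, a smaller fall of -0.33 with an SE of 0.05 (limma adjusted p 0.0364) and 1.25-fold more in set 1. Its dimmer probe differed by -0.30 and missed the threshold (limma adjusted p 0.0698).

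The other 5 genes did not pass. Phlda3, which encodes a repressor of Akt, gave 5.41 and 5.33 in set 1 and 5.01 and 5.11 in set 2. Its difference was -0.31 with a 95% interval of -0.50 to -0.12 (limma adjusted p 0.0601). Bbc3, the gene for the BH3-only protein PUMA, gave 2.004 and 1.98 in set 1 and 1.74 and 1.78 in set 2, a difference of -0.23 (limma adjusted p 0.0666). For both genes set 2 lay below set 1 without overlap. Zmat3, a zinc finger gene, differed by -0.19 (limma adjusted p 0.196), made up of -0.30 in control and -0.09 in Cdh1-treated cultures. It was -0.0992 without control replicate 2, -0.28 without Cdh1 replicate 2 and -0.10 with normexp and quantile normalization. With that normalization Bbc3 (-0.19, limma adjusted p 0.0347) and Phlda3 (-0.25, 0.0235) passed.

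Trp53 and Bax were the genes with the smallest differences between the sets. For Trp53 the difference was -0.06 with a 95% interval of -0.20 to 0.09 (limma adjusted p 0.478). Bax, whose product permeabilises the mitochondrial membrane, gave 4.44 and 4.46 in set 1 and 4.46 and 4.47 in set 2, a difference of 0.02 with an interval of -0.13 to 0.17 (limma adjusted p 0.784). The other Bax probe differed by 0.07. Over 4 other scalings the difference of Trp53 ranged from -0.0967 to -0.0095 and that of Bax from 0.0355 to 0.0993. The intervals of Trp53 and Bax lay wholly above those of Trp53inp1, Ccng1, Cdkn1a and Sesn2, whereas those of neighbours in the order, such as Mdm2 and Phlda3, overlapped. These differences between genes were not tested. Where a gene had 2 probes, both differed in the same direction.

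**Figure D2:**
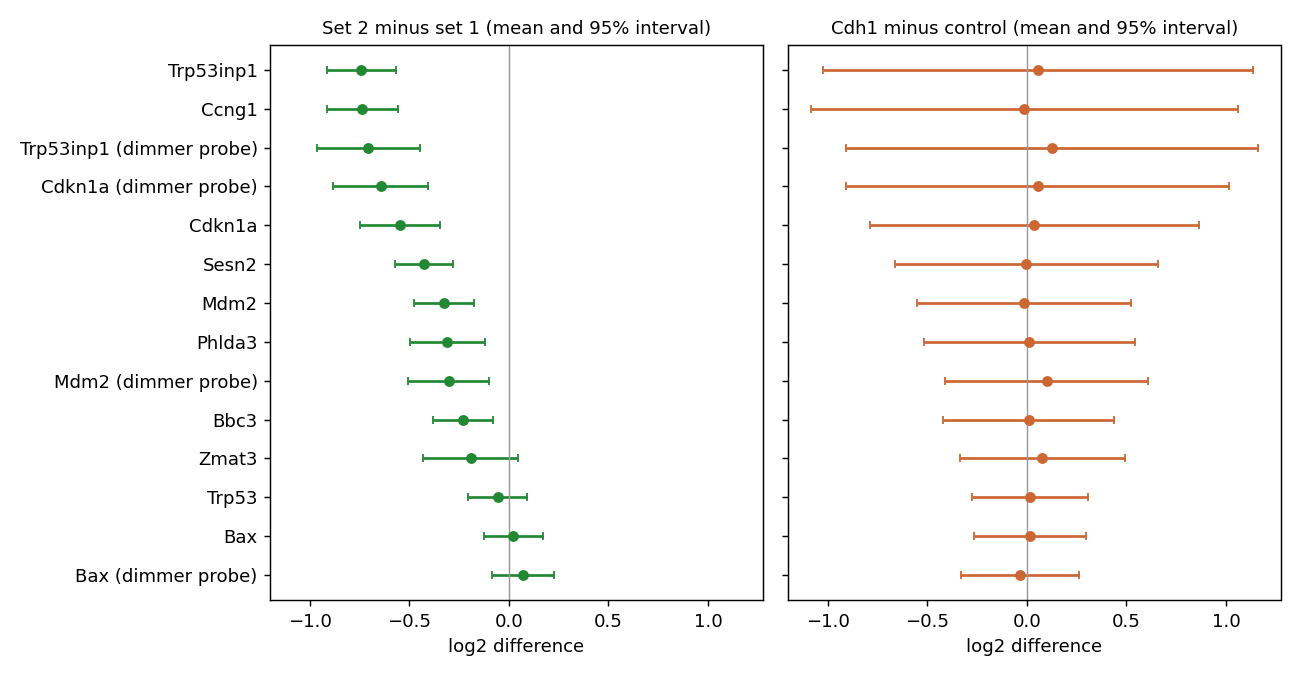
Mean log2 difference of each of the 14 probes between set 2 and set 1 (left) and between Cdh1 and control (right), with 95% intervals from limma, n = 2 arrays a side. On the left the intervals of Trp53inp1, Ccng1, Cdkn1a, Sesn2, Mdm2, Phlda3 and Bbc3 lie below 0, of which those of Phlda3, Bbc3 and the dimmer Mdm2 probe did not pass after adjustment, and on the right every interval spans 0.

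The set difference can be read separately in the control and in the Cdh1 arrays, which share no array. Ccng1 fell by 0.80 in control and by 0.67 in Cdh1-treated cells, Trp53inp1 by 0.78 and 0.70, Cdkn1a by 0.64 and 0.46, Sesn2 by 0.41 and 0.44 and Mdm2 by 0.31 and 0.35. In all, 12 of the 14 probes had both arrays of set 2 below both of set 1, against 34.9% of all probes, and 2, both of Bax, had them above, against 32.7%. As genes these were 9 and 1 of 10, against 41.3% and 31.7%. Across 31155 probes the SD of the set difference was 0.407 in control and 0.387 in Cdh1 arrays, and the shifts of Bbc3, Mdm2 and Phlda3 were smaller than that in both.

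**Figure D3:**
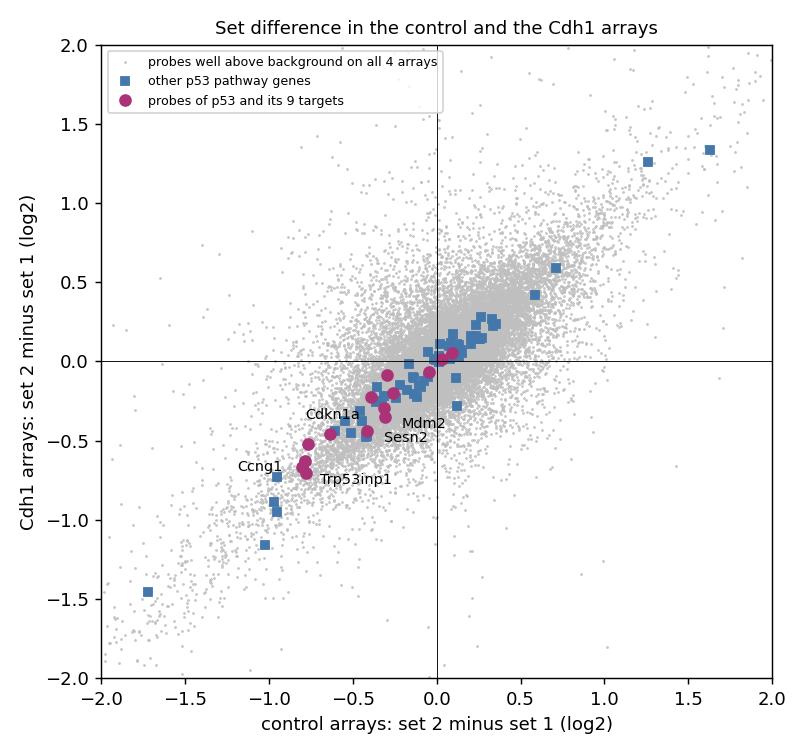
Set 2 minus set 1 on the log2 scale in the control arrays (x axis) against the Cdh1 arrays (y axis), 1 point a probe, with axes limited to 2 either side of 0. Grey points are all probes well above background on all 4 arrays, blue squares other p53 pathway genes and purple points the 14 probes, of which Ccng1 and Trp53inp1 lie furthest to the lower left.

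The calls between the sets needed all 4 arrays: without any 1 of them none of the 7 probes passed (limma adjusted p 0.0668 to 0.151), and without the filter on dim probes none passed either (0.103 to 0.202). With the treatment as a block 3 of the 14 passed, those of Ccng1 and Trp53inp1, against 2165 of all 32955 probes. The direction of each of the 10 genes was the same in every setting tried. Other transcripts differed between the sets too. Of the 8 melanocyte markers 4 fell (Tyr, Slc45a2, Pmel and Mitf) and 0 rose, against 11.5% and 7.53% of all genes. The summed linear signal of the 8, relative to the 75th percentile, was 1567 to 1601 in set 1 and 1344 to 1349 in set 2. For the 5 fibroblast genes the sum was 3.31 to 3.52 in set 1 and 2.65 to 2.78 in set 2. It came mostly from Col1a2, at 1.76 and 1.67 in set 1 and 1.43 and 1.36 in set 2, which did not pass (limma adjusted p 0.0556). Col1a1 and Pdgfra fell but were far dimmer. The probes of Mitf and Pdgfra lay in the edge rows described above. For the 6 leukocyte genes the sum, mostly from Itgam, was 11.82 to 11.96 and 10.26 to 11.65, with 0 called. The sums of the epithelial genes (0.135 to 0.144 and 0.134 to 0.138) and of the endothelial genes (0.0868 to 0.0952 and 0.0751 to 0.104) overlapped between the sets. The part of these in the p53 target values was not tested, and what set the cultures of the sets apart is not given in the sources used here.

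Other genes of the p53 pathway were read from lists by role, 71 genes in all. With Cdh1, 0 of the 64 tested passed (limma), and 0 had an unadjusted p under 0.05, against 1.1% of all genes. In this fit a difference between the sets counts as spread, as for Tgfa (SE 0.76), so such genes could hardly reach a low p. With the set as a replicate block 0 of the 64 passed too. Of the genes named by list for the same direction in both sets, the highest means were those of Tgfa, a growth factor, at 0.26, Pidd1, an adaptor of caspase-2 activation, at 0.18 and the DNA damage kinase Atm at 0.16. The lowest were those of the p53 relative Trp73 at -0.12, the peroxidase Gpx1 at -0.11 and the kinase Plk3 at -0.08. The limma adjusted p of each was 1.

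Between the sets, 17 of 65 fell and 5 rose, against 11.5% and 7.53% of all genes. The median difference of the 65 was -0.08, against -0.03 over all genes. A lower mean in set 2, called or not, was seen in 34 of the 65, against 8008 of 14640 genes. Of the 62 detected on every array 15 fell and 5 rose, against 1759 and 1216 of 13997 genes. Among targets that act on the cell cycle, 6 of 9 tested fell and 0 rose, with a median of -0.48. The largest fall was that of Gadd45a, a stress-induced growth arrest gene, which gave 3.27 and 3.08 on the control and Cdh1 arrays of set 1 and 1.54 and 1.62 on those of set 2. It fell by 1.59 (SE 0.09, limma adjusted p 0.0083), 3.01-fold more in set 1. The polo-like kinase gene Plk2 followed, from -1.79 and -1.61 to -2.81 and -2.77, a difference of -1.09 with an SE of 0.08 (limma adjusted p 0.0117). The fall of Gadd45a was larger than those of the 10 genes under each scaling tried, whereas that of Plk2, at 1 scaling, was smaller than those of Trp53inp1 and Ccng1.

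Among apoptotic targets 6 of 11 fell and 1 rose, with a median of -0.44, and among the 9 well above background on all 4 arrays 5 fell and 1 rose, with a median of -0.29. The death receptor gene Tnfrsf10b fell by 0.72 (limma adjusted p 0.0149), from 1.29 and 1.26 to 0.50 and 0.61. The receptor gene Eda2r was well above background on both arrays of set 1 and on neither of set 2, so it entered the test only through the set in which it was high. Its measured means were -5.11 and -7.95 (limma adjusted p 0.0091, which that entry limits). The mean of set 1 was 1.63-fold the lowest signal well above background, taken on each array of set 2. A signal not well above background can exceed that lowest signal, so 1.63-fold is not a strict lower limit. Under the scaling that gave the smallest value, the difference of Eda2r was -0.32. Bid rose by 0.27 (limma adjusted p 0.0479). The probes of Pmaip1, the gene for NOXA, and of Trp53i11 were not well above background on any array.

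Among repair genes, Ercc5 (-0.45, limma adjusted p 0.0231) and Polk (-0.31, 0.0495) fell, 0 of 8 rose and the median was 0.11. Of the metabolic and redox targets 1 of 11 fell, Ephx1 by 0.41 (limma adjusted p 0.0262), and the median was 0.01. Secreted and surface targets went both ways. Tgfa rose by 1.48 (limma adjusted p 0.0184) and Gdf15, a stress-induced cytokine, rose by 1.26, from -1.01 and -0.93 to 0.25 and 0.33 (limma adjusted p 0.0075). Epha2, the remaining gene of 3 that rose among 7, differed by 0.65 (limma adjusted p 0.015). Its levels were low, at -5.32 and -5.24 in set 1 and -4.61 and -4.65 in set 2. Tap1, a peptide transporter gene, fell by 0.93 (limma adjusted p 0.0086). Lif gave -5.37 and -5.33 in set 1 and -5.78 and -5.70 in set 2, a fall of 0.39. It was well above background on 3 of the 4 arrays and so entered the test through 1 set only, which limits its adjusted p (limma, 0.0348).

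Of 19 regulators and partners of p53 tested, 0 fell and 1 rose, the p53 kinase gene Hipk2, by 0.50 (limma adjusted p 0.0335). Their median was 0.06. The 2 probes of Cdkn2a, the locus of the Mdm2 inhibitor Arf, were not well above background on any array. The medians of the cell cycle and apoptotic lists stayed below 0 under each of 4 other scalings (-0.47 to -0.40 and -0.43 to -0.18). The apoptotic range includes Eda2r and Fas, which were not well above background on all 4 arrays. The median of the secreted and surface list, -0.08, ranged from -0.07 to 0.03 over those scalings. That list's median was 0.29 when the 6 genes detected on every array were kept, and -0.18 to 0.03 without 1 array, so no direction is given for it. Over these scalings the difference ranged from -1.11 to -0.65 for Plk2, from 0.53 to 1.53 for Tgfa, from -2.83 to -0.32 for Eda2r and from -0.37 to -0.03 for Lif. With the treatment as a block 10 of the 65 genes passed, 7 lower and 3 higher, against 755 and 413 of all 14640 genes. Hipk2, Bid, Ercc5, Polk, Ephx1 and Lif did not pass there (limma adjusted p 0.0581 to 0.0954). Without 1 array at most 1 of the 65 passed. The split of 17 lower and 5 higher became 18 lower of 29 called with normexp and quantile normalization and 12 lower of 18 called on the values of the authors' deposited table. Of all 14640 genes, 2563 were called lower and 2267 higher with that normalization, and 1385 lower and 1326 higher on that table.

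**Figure D4:**
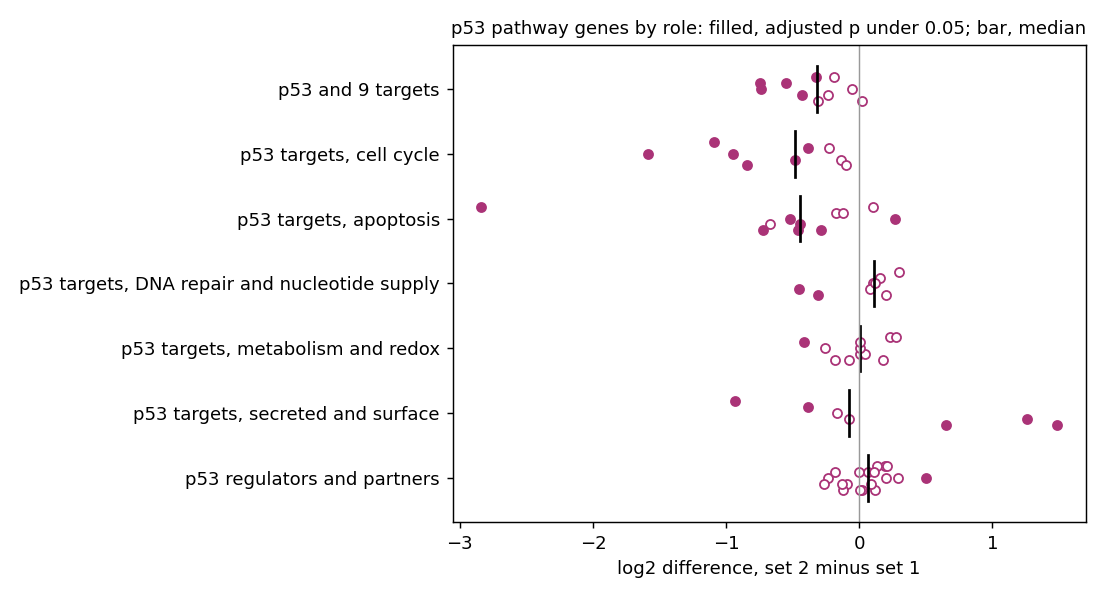
Log2 difference of set 2 minus set 1 for p53 pathway genes by role, 1 point a gene by its brighter probe, filled where the limma adjusted p was under 0.05, with a bar at each list's median and points spread vertically for legibility. The medians of the cell cycle (-0.48) and apoptotic (-0.44) lists lie left of 0. For the 9 apoptotic genes well above background on all 4 arrays the median was -0.29. The point at -2.84 is the measured difference of Eda2r, whose set 2 signal was not well above background.

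Among the brighter probes of the 10 genes, that of Ccng1 had the widest range over the 4 arrays, 0.80, while the dimmer Trp53inp1 probe ran from -0.61 to -1.44. Among 13997 genes well above background on all 4, those with the smallest root mean square difference from its centred levels were Ghr (0.0065), Chd9 (0.008) and Dnajc18 (0.0103). Ghr encodes the growth hormone receptor and Chd9 a chromatin remodeller. Each fell by 0.73 between the sets. The measure rests on 4 arrays.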

How the data were processed

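Total RNA of B16-F10 cultures was measured on 4 one-colour Agilent arrays, 2 of control and 2 of Cdh1-treated cells. The scanner files hold processed intensity made with Agilent Feature Extraction 12.0.3.1, per the file headers, which give mm9 as the genome build. The deposited table holds the same intensity multiplied by 1 factor per array (0.8735 to 0.9304). Control spots and spots marked as outliers (115 to 143 per array) were left out. Log2 of the processed intensity minus the 75th percentile of the array was averaged over the spots of a probe. Probes well above background, on a share of their spots above 0.5, on both arrays of at least 1 side of a comparison were tested with limma 3.58.1 in R 4.3.3 (lmFit, eBayes, no block), with Benjamini-Hochberg adjustment over all probes and a threshold of 0.05. The procedure was tested on simulated data. Probes were named by RefSeq accession (33767 of 56605 matched). Gene counts use the probe of highest mean level for each gene, and fold values are 2 to the power of the log2 difference.

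The members and lists were chosen with earlier results of these data known. Named list genes were the 2 largest called rises and falls between the sets, and the largest rise and fall with Cdh1 shared by both sets, and for likeness the 3 genes nearest to the member of widest range by its brighter probe. Col1a1, Pdgfra, Epha2 and the genes not well above background were named after their values were seen, as were the called melanocyte markers. The set number pairs the arrays, per the labels, and the set differences of control and Cdh1 arrays had a Pearson correlation of 0.745 across probes, which are not replicates. With 2 arrays against 2, an exact two-sided permutation test cannot give a p below 0.333. The number of arrays limits the precision. The p-values measure only the spread between these arrays.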

Additional observations from a re-analysis of the deposited data

How the results depend on the processing

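Between the sets, each of the 10 genes kept its direction in all 142 values recomputed. The number of probes called, 5095, became 9032 with normexp and quantile normalization, 11194 with a trend and robust prior, 2165 with the treatment as a block, 0 with no filter on dim probes and 0 to 409 without 1 array. The 7 called probes of the 10 genes became 11, 3, 0 and 0 with the prior, the block, no filter and any 1 array left out, and the 22 pathway genes became 34, 10, 0 and 0 to 1. The cause was not tested, except that leaving out an array leaves 1 side with a lone array, assumed to vary like the other side. Median centring ended the call of Mdm2 (limma adjusted p 0.0777).

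For Cdh1 against control, no setting called a probe, and the replicate block (set) gave 0 too, with 2335 probes at an unadjusted p under 0.05. The sign of the mean difference turned for Mdm2 (0.0083) and Ccng1 (0.0364) with normexp and quantile normalization, for Ccng1 (0.0101) and Sesn2 (0.0193) with quantile normalization, for Mdm2 (0.0087), Ccng1 (0.012) and Sesn2 (0.0204) on the authors' deposited table, and for Mdm2 (0.0416) and Bax (-0.0086) with the mean of all probes. With median centring it turned for Trp53 (-0.0285), Cdkn1a (-0.0065), Bbc3 (-0.036), Bax (-0.028) and Phlda3 (-0.0314). Without 1 array the differences ranged from -0.12 to 0.14 for Bbc3, -0.41 to 0.39 for Ccng1, -0.28 to 0.36 for Cdkn1a, -0.19 to 0.16 for Mdm2, -0.18 to 0.21 for Phlda3, -0.22 to 0.22 for Sesn2, -0.0169 to 0.0481 for Trp53, -0.33 to 0.45 for Trp53inp1, -0.0704 to 0.2269 for Zmat3 and 0.0012 to 0.03 for Bax. The cause was not tested. The 14 probes were well above background on all 4 arrays, so the filter on dim probes left out none of them.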
